A study of Mus musculus with 18 samples.

Results

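Day 16 Msx1-positive cells, sorted from mouse embryoid bodies in which Dlx2 had been induced, were compared with the embryonic stem (ES) cells of the same reporter line. Members were taken by label: the columns of the 2 day 16 Msx1-positive libraries and of the 2 ES libraries, which are 4 of the 18 samples of the series, with all 54114 gene rows. The study asks whether Dlx2 moves ES cells toward ectomesenchyme, and this contrast spans its whole path, from the starting culture to the latest sorted cells. All 4 libraries derive from a mouse ES line with a tdTomato reporter at Msx1. The ES cells are labelled WT and untreated, and the line was kept in medium with serum and LIF. The sorted cells are labelled as an inducible Dlx2 overexpression line, grown as hanging-drop embryoid bodies with doxycycline at 1 µg/ml and sorted by flow cytometry at day 16. By these labels genotype, doxycycline, growth as embryoid bodies, time and sorting all differ between the groups, and their shares in a change cannot be told apart here. Neither the number of clones nor the gate of the sort is given in the sources used here, and nothing says that replicates came from separate cultures, so p-values measure the spread between these libraries, which may be technical.

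As background, ES cells hold a naive state through a circuit of transcription factors, among them Pou5f1, Sox2, Nanog and Esrrb, and are kept in it by LIF. Ectomesenchyme is the mesenchyme of the face and pharyngeal arches that arises from cranial neural crest and forms facial bone, cartilage, dentine and connective tissue. Its cells switch on homeobox and bHLH factors such as Msx1, Prrx1, Dlx5 and Twist1, and later secrete large amounts of fibrillar collagen. Cranial neural crest of the first arch is known for lacking Hox expression, while trunk and limb mesenchyme carries it.

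Total counts were 54884142 and 53797597 in the ES libraries and 62026265 and 64696124 in the Msx1-positive libraries. Replicates correlated across genes at r = 0.9932 (ES cells) and 0.9945 (Msx1-positive), against 0.6828 to 0.6882 between the groups, on log2 levels. Levels are given in CPM, counts scaled to 1000000 per library, for the genes the results turn on as both libraries of a group in the order of replicates 1 and 2, and for the others as mean ± SD (n = 2). Changes are log2 fold changes from edgeR's quasi-likelihood test over 22504 genes, n = 2 libraries per group, with a standard error (SE) after the ± sign. That test reports no SE, so it was worked back from each gene's change and F statistic. Such an SE can be too small for a gene with few counts in 1 group, such as Tnc with 4 ES counts. A gene is called at a Benjamini-Hochberg adjusted p below 0.05. For a gene without any count in 1 group, the fold is a lower bound computed as if that group had held 3 counts in all. For a gene with 1 to 3 counts there, the ratio is given with its 95% counting interval.

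The reporter gene followed the labels. Msx1, a homeobox repressor of arch and limb mesenchyme, was at 73.7 and 81.7 CPM in the Msx1-positive libraries and at 0.212 and 0.627 CPM in ES cells. The groups were far apart, with a log2 change of 7.53 ± 0.29 and an adjusted p of 4.60e-09. In the Msx1-negative fraction of day 16 it was at 0.818 and 0.752 CPM. Dlx2, the induced factor, was at 288 and 341 CPM in Msx1-positive cells, and at 219 and 222 CPM in the ES cells although these are labelled WT and untreated. The groups did not overlap, but the difference was small, with a log2 change of 0.52 ± 0.08 (adjusted p = 1.26e-05). At day 8 the Msx1-positive cells had held 1137 and 1269.8 CPM of Dlx2. The counts do not separate the transgene from the gene at its own locus, and whether the libraries labelled WT come from the uninduced Dlx2 line or from another is not settled by the sources used here. Tmpo, which encodes the LAP2 proteins of the nuclear lamina named in the study's title, was at 234 and 228 CPM in Msx1-positive cells and 231 and 245 CPM in ES cells and was not called (log2 change -0.04 ± 0.05, adjusted p = 0.487).

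Markers chosen to check the labels fell on the labelled sides. They were chosen with earlier results of these data known, and Msx1 carries the reporter of the sort, so they are not an independent check. Over all genes tested, 33.7% were called lower and 37.3% higher. Pou5f1, Nanog, Sox2, Zfp42 and Esrrb, regulators of the ES state, were all called lower in Msx1-positive cells, and Msx1, Prrx1, Prrx2, Twist1, Pdgfra, Dlx5 and Alx1, markers of ectomesenchyme, were all called higher. Alx1, a regulator of frontonasal mesenchyme, was the weakest of these, at 1.6 and 2.14 CPM in Msx1-positive cells. The ES markers were not absent from the sorted cells: Pou5f1 was still at 15.9 and 16.5 CPM. In bulk RNA, fewer cells of a type and less RNA per cell cannot be told apart.

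In all, 15976 of 22504 genes were called (71.0%), 8395 of them higher in Msx1-positive cells (37.3%) and 7581 lower (33.7%). With a log2 change of at least 1, the numbers were 5891 higher (26.2%) and 4233 lower (18.8%). The median change over all genes tested was 0.07. Counts of list members are to be read against these shares, since a list whose members are called at near these shares does what all genes do. The 47 lists used hold 1099 entries (1027 different genes), of which 1066 were tested and 33 had too few counts or were not in the table.

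**Figure D1:**
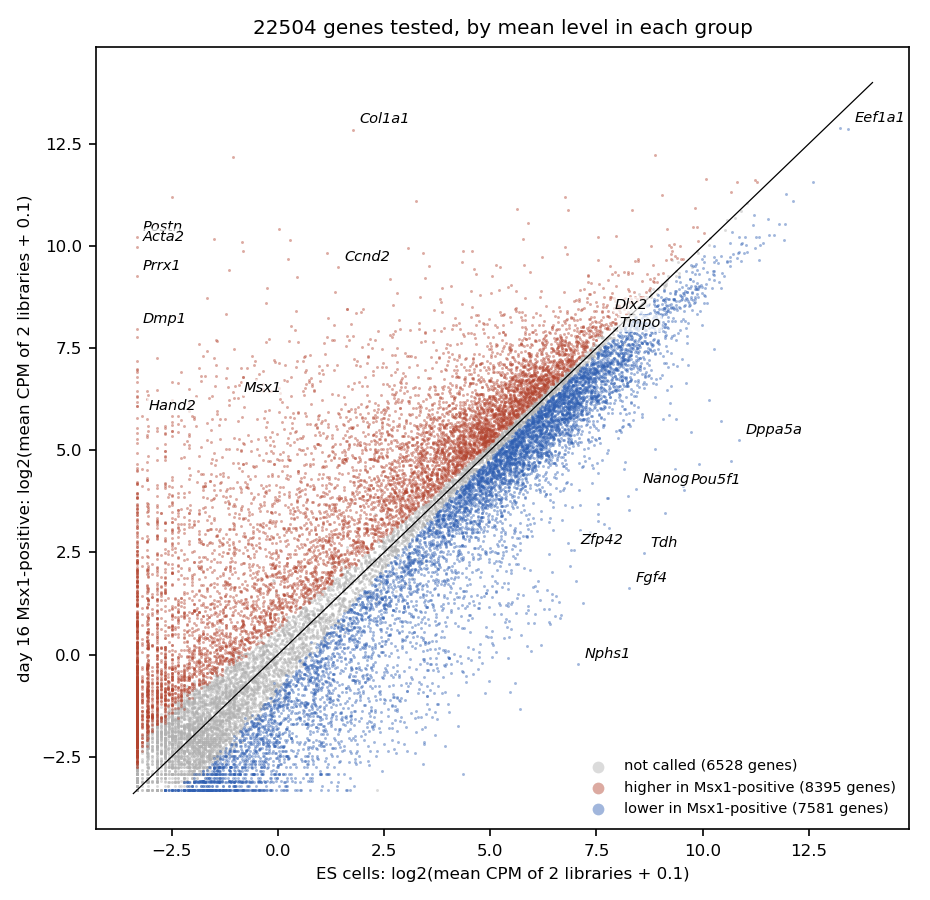
Mean level of each of the 22504 genes tested, as log2(mean CPM + 0.1), in ES cells (x axis) and in day 16 Msx1-positive cells (y axis), coloured by the call. The line marks equal levels. Col1a1, Postn, Acta2 and Prrx1 lie at the upper left, and Fgf4, Nphs1, Tdh and Zfp42 at the lower right.

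Per kilobase of exon, the scale on which genes can be set side by side, the 10 highest nuclear protein-coding genes of Msx1-positive cells were Eef1a1, Rplp1, Actb, Col1a1, Hsp90ab1, Actg1, Rplp0, Rps3a1, Ptma and Rpl4. Of these, 9 encode translation factors, ribosomal proteins, actins, a chaperone and prothymosin, all of which growing cells express highly. How reads that match several genes were counted is not given in the sources used here, and this order depends on it: Gapdh, a glycolytic enzyme with many pseudogenes, had only 78.8 ± 0.36 CPM. Col1a1, the chain that makes up most of type I collagen, was the other gene of the 10. It stood at a level of 1122 CPM per kilobase, next to beta-actin at 1169, and at 0.506 in ES cells. In ES cells the corresponding place was held by Dppa5a, an RNA-binding protein of the early embryo, at 3018 CPM per kilobase against 61.2 in Msx1-positive cells. The 30 collagen genes listed took 0.0663% and 0.0653% of all counts in the ES libraries and 2.27% and 2.03% in the Msx1-positive libraries. The 33 pluripotency genes listed moved the other way, from 1.27% and 1.25% to 0.0894% and 0.0898%.

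A set of genes had no count in ES cells at all. Of the genes tested, 1001 had none in either ES library, and 71 of these reached at least 5 CPM in both Msx1-positive libraries, 18 of them at least 50 CPM. The reverse was rarer: 322 genes had no count in Msx1-positive cells, and 0 of them reached 5 CPM in both ES libraries. These numbers depend on the filter, which a gene could pass through any group of the 10 libraries fitted. They also depend on depth, which was lower in the ES libraries, and on ES transcripts still present in the sorted cells. The part of each in the difference was not tested. The 15 largest called rises by fitted log2 change, among named genes with at least 5 CPM in both Msx1-positive libraries, all lacked an ES count. They were Postn, Acta2, Prrx1, Dmp1, Inhba, Ccdc80, Fat4, Pcdh7, Dnm3os, Dcn, Dio2, Lum, Megf10, Dkk2 and Svep1. That all lack an ES count follows in part from the ranking, since fitted values of such genes are not bounds and can exceed them. Tnc, at 1474 CPM with 4 counts in ES cells, had a log2 change of 15.14 and is not among them.

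Postn (chromosome 3, 54361109 to 54391037, plus strand) encodes periostin, a matrix protein of periosteum and periodontal ligament. It was at 1161 and 1213 CPM in the Msx1-positive libraries, at least 40708-fold higher than in ES cells (adjusted p = 1.89e-07). Acta2 (chromosome 19, 34241090 to 34255590, minus strand), smooth muscle actin, was at 973 and 1031 CPM, at least 34374-fold higher (adjusted p = 4.42e-15). Prrx1 (chromosome 1, 163245119 to 163313710, minus strand), a homeobox factor of limb and craniofacial mesenchyme, was at 611 and 612 CPM and at least 20953-fold higher (adjusted p = 7.33e-20). Both Msx1-positive values were close to each other for these 3 genes. Dmp1 (chromosome 5, 104202613 to 104214102, plus strand), a matrix phosphoprotein of dentine and bone, was at 256 and 245 CPM, at least 8588-fold higher. Inhba, which encodes the activin A subunit and is needed for early tooth development, was at 223 and 216 CPM. The least even of the 15 was Fat4, a giant protocadherin of planar polarity, at 145 and 109 CPM (adjusted p = 2.60e-06). Dnm3os, a noncoding transcript that carries miR-199a and miR-214, was at 116 and 127 CPM. Dio2, which activates thyroid hormone, was at 102 ± 1.4 CPM and Dkk2, a secreted WNT modulator, at 78.3 ± 1.8 CPM.

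Of these 15 genes, 11 have a RefSeq promoter window (250 bases before to 50 after a transcription start, GRCm38.p6), and 5 of the 11 windows hold the TATA box letters TATAAA on either strand. In 4 of them, Postn, Inhba, Dio2 and Dkk2, the letters run in the direction of the gene. Their 250 bases before the start are printed because a TATA box near the start is a known feature of promoters that are active in few cell types. Prrx1 is printed for the homeodomain core TAATTA, and Dmp1 because its window holds neither of these motifs, nor the octamer ATGCAAAT, on either strand. The motif is in capitals, and each stretch is read 5′ to 3′ on the gene's strand and ends at the base before the start.
Postn, chr3:54360857-54361106, plus strand: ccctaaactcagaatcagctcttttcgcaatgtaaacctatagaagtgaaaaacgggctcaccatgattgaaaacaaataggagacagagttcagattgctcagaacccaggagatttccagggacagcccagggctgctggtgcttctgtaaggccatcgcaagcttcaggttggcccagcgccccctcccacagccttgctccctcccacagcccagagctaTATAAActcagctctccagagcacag
Dio2, chr12:90739039-90739288, minus strand: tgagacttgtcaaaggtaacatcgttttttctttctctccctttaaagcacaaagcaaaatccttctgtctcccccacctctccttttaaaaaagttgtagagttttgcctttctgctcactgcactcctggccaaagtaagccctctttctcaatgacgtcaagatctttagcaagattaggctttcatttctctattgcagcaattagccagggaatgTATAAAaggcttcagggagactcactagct
Dkk2, chr3:132085042-132085291, plus strand: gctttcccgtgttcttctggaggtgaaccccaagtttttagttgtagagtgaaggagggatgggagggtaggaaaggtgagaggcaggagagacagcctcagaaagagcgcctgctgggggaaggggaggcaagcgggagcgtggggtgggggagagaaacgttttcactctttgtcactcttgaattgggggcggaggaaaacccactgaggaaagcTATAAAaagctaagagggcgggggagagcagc
Inhba, chr13:16011601-16011850, plus strand: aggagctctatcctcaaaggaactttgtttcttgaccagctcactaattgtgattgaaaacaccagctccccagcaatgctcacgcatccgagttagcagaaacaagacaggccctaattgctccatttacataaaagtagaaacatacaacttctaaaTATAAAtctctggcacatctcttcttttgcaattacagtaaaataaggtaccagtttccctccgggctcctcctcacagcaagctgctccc
Prrx1, chr1:163313651-163313900, minus strand: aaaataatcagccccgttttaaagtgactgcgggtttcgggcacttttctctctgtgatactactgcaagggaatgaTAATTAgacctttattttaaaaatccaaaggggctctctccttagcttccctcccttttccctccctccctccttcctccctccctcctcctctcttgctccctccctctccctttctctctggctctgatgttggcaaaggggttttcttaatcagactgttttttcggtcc
Dmp1, chr5:104202367-104202616, plus strand: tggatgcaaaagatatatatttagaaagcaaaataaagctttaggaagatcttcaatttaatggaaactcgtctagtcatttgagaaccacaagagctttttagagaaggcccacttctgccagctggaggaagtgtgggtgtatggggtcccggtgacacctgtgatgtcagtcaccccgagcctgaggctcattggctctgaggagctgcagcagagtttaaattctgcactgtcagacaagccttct
Counting the start as 0, the first T of TATAAA lies at -26 in Postn, -30 in Dio2, -32 in Dkk2 and -91 in Inhba, and TAATTA begins at -173 in Prrx1. The RefSeq start of Dio2 lies 600 bases from its GENCODE start, and those of the other 5 genes lie within 60 bases of it.

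The same letters were counted over 1 window per gene, on both strands, in 14228 of the genes tested. TATAAA was in 8.41% of all these windows, in 10.3% of genes called higher by a log2 change of at least 1, in 9.79% of those called lower by as much and in 6.97% of the other genes. Among the 71 genes with no ES count and at least 5 CPM in Msx1-positive cells, 49 had a window, and 16 of these held TATAAA (32.7%). The letters were counted anywhere in the window, such as at -166 in Lrrc17 and, after the start, at 33 in Actc1. So not all of the 16 hold them where a TATA box would lie. The observed over expected ratio of CpG dinucleotides, low in promoters outside CpG islands, had a median of 0.338 in those 49 windows, against 0.699 over all genes tested. Over all 32851 RefSeq windows, not limited to genes tested or to 1 window per gene, the median ratio was 0.384 and TATAAA was in 13.6%. Of 598 genes higher by a log2 change of at least 5 and at 5 CPM or more in both Msx1-positive libraries, 399 had a window, with a median ratio of 0.535 and TATAAA in 58 (14.5%). Of 85 genes lower by as much and at 5 CPM or more in both ES libraries, 61 had a window, with a median ratio of 0.285 and TATAAA in 7 (11.5%). TAATTA was in 3.05% of windows of genes called higher by at least 1, in 3.57% of those called lower by as much and in 3% of all genes tested. In the smaller groups it was in 4 of the 49 windows (8.16%), in 13 of the 399 (3.26%) and in 10 of the 61 (16.4%). These are descriptions of letters in windows, chosen here after the expression values were known.

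All 33 pluripotency genes listed were called lower in Msx1-positive cells, against 33.7% of all genes, with a median log2 change of -4.44. Pou5f1, the POU factor required for pluripotency, was at 749.6 and 774 CPM in ES cells and at 15.9 and 16.5 CPM in Msx1-positive cells. Nanog, a homeobox factor, went from 332 and 364 CPM in ES cells to 15.7 and 17.4 CPM. Esrrb, an orphan receptor of the naive state, went from 753 and 716 CPM to 21.1 and 21.2 CPM. Both Msx1-positive values lay far under both ES values for each of these genes. The log2 changes were -5.55 ± 0.06 for Pou5f1, -4.39 ± 0.08 for Nanog and -5.12 ± 0.06 for Esrrb. Tdgf1, the NODAL co-receptor Cripto, fell from 1615 ± 19.6 to 26.7 ± 0.24 CPM. Fgf4, the autocrine growth factor of ES cells, fell the most of the list, from 301 and 315 to 3.14 and 2.82 CPM (log2 change of -6.69 ± 0.08, adjusted p = 4.84e-20). Klf2, Tbx3 and Lefty1 fell the least, with log2 changes of -1.34 ± 0.10, -1.58 ± 0.07 and -1.67 ± 0.09. Tbx3 is also a gene of limb and face mesenchyme, and was at 104 ± 0.53 CPM in Msx1-positive cells.

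The 16 formative and primed genes went both ways, with 7 higher and 9 lower. Dnmt3l, the cofactor of de novo DNA methylation, fell from 555 ± 8.3 to 11 ± 0.66 CPM. Cdh2 (N-cadherin) rose from 4.59 ± 0.60 to 123 ± 0.73 CPM and Sall2 from 4.79 ± 0.56 to 55.4 ± 0.69 CPM. Fgf5, the classical epiblast marker, was at 8.32 ± 0.31 CPM against 0.379 ± 0.037 in ES cells.

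The 15 largest called falls included few of the textbook factors. They were Nphs1, Kirrel2, Aoah, Tnfrsf8, Fgf4, Gtsf1l, Khdc3, Olig2, Zp3, Mup6, Pou4f2, Lrrc31, Tdh, Pla2g10 and Olig1. Nphs1 (chromosome 7, 30458315 to 30487223, plus strand), which encodes nephrin of the kidney slit diaphragm, was at 146 and 123 CPM in ES cells and at 1.0 and 0.499 CPM in Msx1-positive cells (log2 change of -7.49 ± 0.17, adjusted p = 2.55e-14). Kirrel2, a nephrin-like adhesion protein, lies head to head with it, 624 bases away on the other strand by GENCODE positions. Kirrel2 went from 53.7 and 50.4 to 0.194 and 0.405 CPM (log2 change of -7.42 ± 0.17). The libraries do not keep strand, and Nphs1 overlaps Nphs1os and a ribosomal pseudogene, so the Nphs1 count may hold their reads. Olig1 and Olig2, bHLH factors of oligodendrocyte precursors, are neighbours 41094 bases apart and fell from 73.2 ± 6.5 to 1.07 ± 0.15 CPM and from 47.7 ± 3.6 to 0.514 ± 0.40 CPM. Tdh, a threonine dehydrogenase on which mouse ES cells depend, fell from 402 and 389.8 to 5.05 and 5.99 CPM. Khdc3 and Zp3 are genes of the oocyte, and Gtsf1l is related to a piRNA factor of the germline.
Olig2, chr16:91225300-91225549, plus strand: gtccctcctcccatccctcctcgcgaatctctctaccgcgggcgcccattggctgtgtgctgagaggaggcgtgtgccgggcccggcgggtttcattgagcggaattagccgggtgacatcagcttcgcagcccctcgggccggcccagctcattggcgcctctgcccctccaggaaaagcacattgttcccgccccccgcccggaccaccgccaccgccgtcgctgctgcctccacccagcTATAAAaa
This promoter is shown because it is 1 of only 2 among the 13 windows of these falls that hold TATAAA, here with its first base at -8. The other is that of Mup6, but its RefSeq start lies 39187 bases from the GENCODE start of the gene. The RefSeq starts of Fgf4, Gtsf1l and Nphs1 lie 14019, 1746 and 1743 bases from theirs. So the windows of these genes may not be the promoters in use.

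Every ectomesenchyme transcription factor listed was called higher, 36 of 36, with a median log2 change of 6.14. The list was drawn up with earlier results of these samples known and is not independent evidence of the direction. Prrx2, the partner of Prrx1, was at 66.1 ± 0.73 CPM against 4.13 ± 0.21 in ES cells. Twist1, a bHLH factor of cranial mesenchyme, was at 133 and 129.5 against 4.98 and 4.9 CPM (log2 change of 4.73 ± 0.12, adjusted p = 4.63e-15). Among the Dlx genes, which pattern the arches along their proximal to distal axis, Dlx1 was at 74.8 ± 2.8 CPM, Dlx5 at 31.6 ± 5.0 and Dlx6 at 12.7 ± 0.80. In ES cells Dlx1 was at 0.0778 ± 0.00090 CPM, Dlx5 at 0.0579 ± 0.082 CPM, and Dlx6 had no count. Dlx3 and Dlx4 rose less, with log2 changes of 2.36 ± 0.16 and 2.12 ± 0.34. Hand2, the factor of the distal arch and limb, was at 57.4 ± 1.4 CPM with 1 count in the ES libraries, a ratio of 5900.2 (95% counting interval 1059 to 233078). Runx2, required for osteoblasts, was at 44.6 ± 2.5 CPM and Osr1, a zinc finger factor of mesenchyme, at 22.3 ± 1.1 CPM, at least 764-fold higher. Alx4, of the frontonasal region, was at 27 ± 2.7 CPM and Foxc1, a forkhead factor of skull and eye mesenchyme, at 43.5 ± 1.3 CPM. Six2 and Tbx15 were at 25.9 ± 0.33 and 25.6 ± 2.7 CPM. Factors of epithelial to mesenchymal transition, Snai1, Snai2, Zeb1 and Zeb2, had log2 changes of 3.88 ± 0.17, 6.64 ± 0.31, 3.05 ± 0.10 and 6.37 ± 0.16.

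Neural crest specifiers were split. Of 17, 13 were called higher and 3 lower, with a median of 2.57. Sox9, which marks crest and cartilage, was at 48.1 ± 2.0 CPM against 0.116 ± 0.054 CPM. Tfap2b, an AP-2 factor of facial crest, was at 8.48 ± 0.33 CPM and had no count in ES cells (at least 291-fold higher). Ets1 rose from 1.46 ± 0.64 to 92.5 ± 1.7 CPM and Nes (nestin) from 14.7 ± 0.24 to 167 ± 15.1 CPM. The 3 that fell were Sox10, Foxd3 and Tfap2c. Sox10, which marks migratory crest and its glia, was at 1.1 ± 0.14 CPM in ES cells and 0.503 ± 0.20 in Msx1-positive cells, and was not called without Msx1-positive replicate 2 or without ES replicate 1. Foxd3, a factor of both ES cells and premigratory crest, was at 1.58 and 1.14 CPM in ES cells and had no count in Msx1-positive cells (at least 57.1-fold lower, adjusted p = 1.34e-07). Pax7, of the dorsal neural tube, was not called, at 0.538 ± 0.41 CPM in Msx1-positive and 0.291 ± 0.079 CPM in ES cells.

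Genes of the oral and tooth list were called higher in 20 of 21 cases, with a median of 8.09, or 6.49 with the 6 genes that lack an ES count set to their lower bound. The list mixes factors of mesenchyme with genes of the enamel organ such as Odam, so its count and median are not of mesenchyme alone. Barx1, a homeobox factor of molar mesenchyme, was at 84.2 ± 8.4 CPM against 0.931 ± 0.48. Pitx1, of the lower jaw and hindlimb, was at 93 ± 1.8 against 0.341 ± 0.13 CPM. Lhx8 and Lhx6 are LIM factors of the oral side of the arch. Lhx8 was at 27 ± 0.88 against 0.0386 ± 0.055 CPM and Lhx6 at 11.4 ± 0.38 against 1.85 ± 0.43 CPM. Pax9 was at 14.6 ± 1.2 CPM. Ambn, which encodes the enamel matrix protein ameloblastin, was at 14.2 ± 0.47 CPM, while Enam and Odam, other proteins of the enamel organ, reached 0.684 ± 0.041 and 4.72 ± 0.51 CPM, all 3 without a count in ES cells. Dspp, the dentine sialophosphoprotein of odontoblasts, stayed low at 1.13 ± 0.14 CPM (at least 38.7-fold higher). The exception was Gli1, a hedgehog target, which fell from 23 ± 1.2 to 14.1 ± 0.078 CPM. Bmp4 changed little, from 43.5 ± 3.0 to 59.5 ± 2.0 CPM (log2 change of 0.45 ± 0.08, adjusted p = 1.29e-04).

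**Figure D2:**
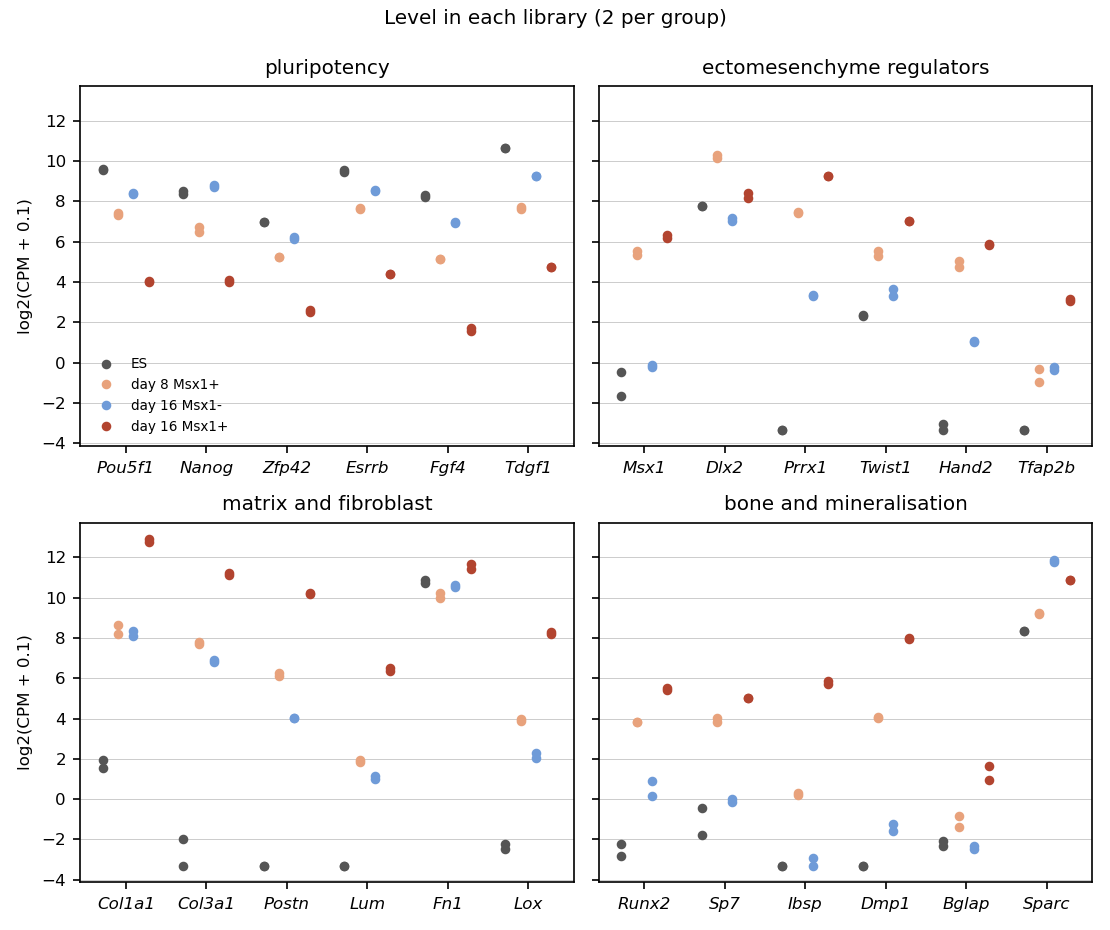
Level of 24 genes in each library, as log2(CPM + 0.1), with 2 libraries for ES cells, day 8 Msx1-positive, day 16 Msx1-negative and day 16 Msx1-positive cells. Pluripotency genes are lowest in day 16 Msx1-positive cells, where Col1a1, Postn and Dmp1 are highest. Sparc and Dlx2 do not follow that order: Sparc is highest in day 16 Msx1-negative cells and Dlx2 in day 8 Msx1-positive cells.

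Bone genes rose in part. Of 23 tested, 18 were called higher, 3 lower and 2 were not called (median 5.39). Sp7 (osterix), which commits preosteoblasts, was at 32.7 ± 0.27 CPM against 0.41 ± 0.31 CPM. Ibsp, bone sialoprotein, was at 53.2 and 57.9 CPM with no ES count (at least 1905-fold higher, adjusted p = 1.30e-13). Phex, an endopeptidase of osteoblasts and osteocytes, was at 17.4 ± 0.94 CPM. Bglap and Bglap2, the osteocalcin genes of mature osteoblasts, were only at 2.41 ± 0.81 and at 3.38 ± 1.0 CPM. They are near copies and their reads may be split between them. Sost, an osteocyte gene, was at 1.11 ± 0.053 CPM. Alpl, tissue-nonspecific alkaline phosphatase, fell, from 126 and 114 to 16.4 and 19.8 CPM (log2 change of -2.73 ± 0.08), and so did the phosphate transporters Slc20a1 and Slc20a2. Alpl serves mineralisation, and it is also highly active in ES cells and germ cells. Phospho1 and Ifitm5, genes of mineralising osteoblasts, were not called, at 0.406 ± 0.067 and at 0.221 ± 0.11 CPM. Dmp1, Ibsp, Dspp, Sparcl1 and Spp1 (osteopontin) lie in 1 cluster of secreted phosphoproteins on chromosome 5 and were called higher, Spp1 from 355 ± 6.6 to 788 ± 60.7 CPM. Mepe, another gene of that cluster, had 0 counts in all 4 libraries.

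Cartilage genes were less uniform, with 17 of 21 higher and 4 lower. Col11a1 was at 155 ± 12.1 CPM against 1.44 ± 0.23, Hapln1, a link protein, at 42.4 ± 1.4 against 0.0579 ± 0.082, and Col2a1 at 63.6 ± 9.3 against 5.71 ± 0.33. Acan, the aggregating proteoglycan of cartilage, fell from 26.1 and 25.6 to 2.56 and 2.7 CPM (log2 change of -3.30 ± 0.14), and Matn1, Matn3 and Snorc fell as well. Matn3 and Snorc are weak calls: the count of lower members was 2 with the 4 compared libraries alone, without Msx1-positive replicate 2 and without ES replicate 2. Snorc also lost its call without Msx1-positive replicate 1, and Matn3 without ES replicate 1. Col10a1, of hypertrophic cartilage, was at 0.254 ± 0.038 CPM and was not called without ES replicate 1. In tendon, ligament and fibroblast genes, 19 of 21 were called higher and 1, Mfap5, lower. Dcn, Lum and Kera, small leucine-rich proteoglycans that sit side by side on chromosome 10, were at 111 ± 7.9, at 87.8 ± 6.6 and at 1.02 ± 0.41 CPM, and none had an ES count. Bgn, another of the family, was at 1131 ± 53.8 against 1.13 ± 0.15 CPM. Scx, the tendon bHLH factor, rose from 0.64 ± 0.24 to 29.5 ± 2.8 CPM, whereas Tnmd, of mature tendon, reached 0.437 ± 0.023 CPM.

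Most collagen genes rose. Of 29 collagen genes tested, 26 were called higher and 2 lower (median 7.12). Col1a1 (chromosome 11, 94936224 to 94953042, plus strand) was at 7758 and 6972 CPM in Msx1-positive cells and at 3.8 and 2.84 CPM in ES cells (log2 change of 11.11 ± 0.25, adjusted p = 6.21e-09). Col1a2, its partner chain, was at 4643 ± 294 against 0.379 ± 0.0094 CPM. Col3a1, of loose connective tissue, was at 2339 ± 129 against 0.0771 ± 0.11 CPM. Replicate 1 was the higher of the Msx1-positive libraries in each of these chains, and the gap between replicates was small beside that between the groups. Col12a1 was at 1148 ± 119.5 CPM, Col5a1 at 941 ± 85.7 and Col6a1 at 424 ± 26.8. The 2 that fell were Col17a1, of the epidermal hemidesmosome (7.92 ± 0.53 to 1.68 ± 0.52 CPM), and Col18a1, of basement membranes (519 ± 7.3 to 429 ± 27.8 CPM, log2 change of -0.27 ± 0.06). The type IV chains Col4a1 and Col4a2 rose to 849.8 ± 81.2 and to 639.6 ± 63 CPM, but were lower than in Msx1-negative cells, at 6607 ± 104 and at 3619.6 ± 161 CPM.

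The machinery that folds and crosslinks collagen rose with it, in 29 of 30 genes (median 3.12). Lox, lysyl oxidase, was at 305 ± 9.2 against 0.0971 ± 0.026 CPM. Serpinh1, the collagen chaperone HSP47, rose from 114 ± 7.2 to 1884 ± 33.9 CPM (log2 change of 4.05 ± 0.06). Bmp1, which cleaves the C-propeptide of procollagen, rose from 3.81 ± 0.97 to 336 ± 7.8 CPM, and Fkbp10, a prolyl isomerase of the endoplasmic reticulum, from 26.1 ± 1.4 to 319 ± 7.3 CPM. The exception was Pcolce2, which fell from 46.9 ± 2.4 to 8.16 ± 0.32 CPM. General secretory genes moved less: 15 of 21 were called higher and 2 lower, with a median of 0.58. Creb3l1, a transcription factor of collagen-secreting cells, rose from 15 ± 2.2 to 94.6 ± 2.5 CPM.

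Elastic fibre, fibronectin and matricellular genes were called higher in 28 of 29 cases (median 5.63). Tnc, tenascin C, was at 1474 ± 131 CPM against 0.0392 ± 0.055 CPM in ES cells, a log2 change of 15.14 ± 0.22. Thbs1, thrombospondin 1, was at 1362 ± 22.5 against 0.914 ± 0.038 CPM, and Fbn2, a fibrillin of embryonic microfibrils, at 904 ± 102 against 2.12 ± 0.20 CPM. Fn1, fibronectin, was already abundant in ES cells at 1799.8 ± 117 CPM and rose to 3041 ± 376 CPM (log2 change of 0.76 ± 0.09). Ltbp4, a latent TGF-beta binding protein, was the exception and fell from 307 ± 15.2 to 49.6 ± 2.5 CPM. Among matrix proteases and their inhibitors, 31 of 35 were called higher and 2, Mmp17 and Mmp24, lower. Mmp2 was at 781 ± 10.1 against 20.2 ± 2.3 CPM, Mmp14, its membrane-bound activator, at 444 ± 20.6 against 27 ± 1.8 CPM, and Timp2 at 585 ± 11.6 against 6.11 ± 0.76 CPM. Mmp13, a collagenase of bone and cartilage remodelling, reached 4.0 ± 0.58 CPM and had no ES count. Laminins and nidogens were divided, with 9 of 15 higher and 5 lower. Lama2 and Lama4, of muscle and vessel basement membranes, rose to 79.6 ± 12.4 and to 246 ± 14.6 CPM, and Lama3 and Lama5, of epithelia, fell, with log2 changes of -3.36 ± 0.09 and -0.79 ± 0.12. Lama1, of the embryonic basement membrane, fell by a small amount, from 148 ± 6.2 to 108 ± 15.3 CPM, a call lost without Msx1-positive replicate 2, without either ES replicate, and with all libraries but no filter on low counts (adjusted p = 0.11).

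**Figure D3:**
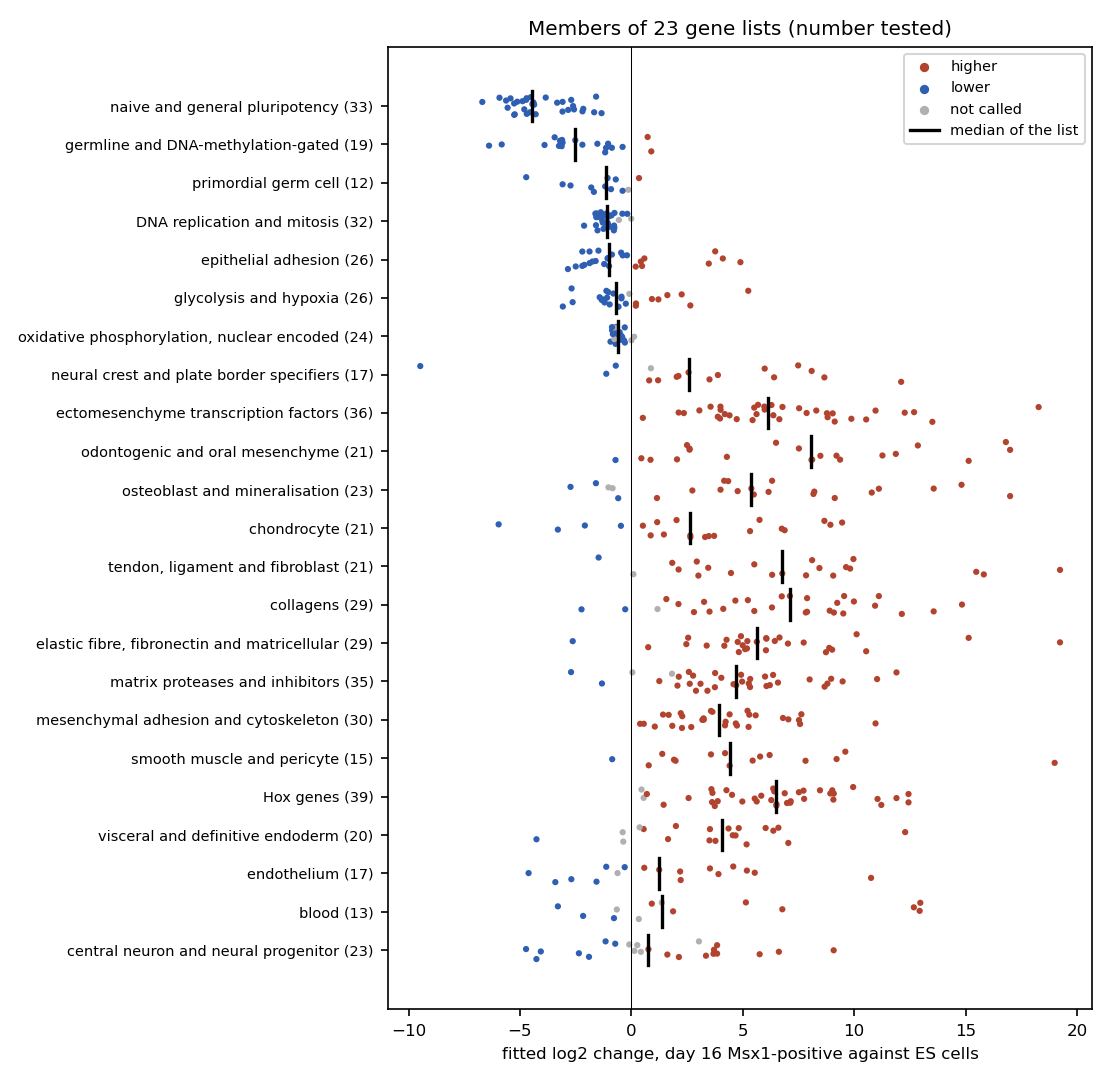
Fitted log2 change of each tested member of 23 gene lists, day 16 Msx1-positive against ES cells, 1 point per gene, with the list's median as a bar. Fitted values of genes with no count in 1 group are not bounds. All 33 pluripotency points lie left of 0 and all 36 ectomesenchyme factor points right of it.

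Mesenchymal adhesion genes rose together, while epithelial ones were divided. All 30 mesenchymal adhesion and cytoskeleton genes were called higher (median 3.92). Cdh11, the cadherin of osteoblasts and mesenchyme, was at 936 ± 6.4 against 0.467 ± 0.060 CPM, Vim (vimentin) at 1519 ± 48.8 against 58.9 ± 0.17, and Tpm1 at 1904 ± 118 against 49.6 ± 1.8. Itgb1, the common beta chain of integrins, rose from 251 ± 13.4 to 1222 ± 22.4 CPM. Of 26 epithelial genes, 18 were called lower and 8 higher. Cdh1 (E-cadherin) fell from 588 and 567 to 172 and 172 CPM (log2 change of -1.75 ± 0.06), Epcam from 248 ± 0.86 to 44 ± 2.9 CPM and Esrp1, a splicing factor of epithelia, from 66.4 ± 0.61 to 18.1 ± 0.45 CPM. The 8 risers were Cldn3, Cldn6, Krt8, Krt18, Krt19, Prss8, Marveld2 and Dsp. Cldn6 lost its call without Msx1-positive replicate 2 and Marveld2 without Msx1-positive replicate 1, and both without ES replicate 2. Krt8, a keratin of simple epithelia and of some mesenchyme, was at 418 ± 1.3 against 14 ± 0.34 CPM, and Dsp, desmoplakin, at 228 ± 19.7 against 20.5 ± 0.0025 CPM. The levels of Cdh1 and Krt8 in the sorted cells do not say whether the same cells carry them.

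Smooth muscle and pericyte genes were called higher in 14 of 15 cases. Beside Acta2, Cspg4 (NG2) was at 86 ± 5.3 against 0.38 ± 0.21 CPM, Rgs5 at 35.7 ± 1.5 against 0.0588 ± 0.083, and Cnn1 at 24.1 ± 1.8 against 2.02 ± 0.22. Myh11, the smooth muscle myosin, was at 7.57 ± 0.59 CPM and Myocd at 3.01 ± 0.48 CPM. Mcam fell from 224 ± 6.3 to 123 ± 6.5 CPM. Tagln, another smooth muscle gene, had 3.14 ± 0.76 CPM. It overlaps Pcsk7 in the annotation, and reads shared by overlapping genes may not have been counted.

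Hox genes, which set position along the body, were called higher in 37 of 39 cases, with 2 (Hoxc12 and Hoxc13) not called. The median log2 change was 6.51, or 5.63 with the 11 genes lacking an ES count at their bound. Members of all 4 clusters rose. Hoxb9, of the trunk, had the highest level per kilobase, 23.4 CPM per kilobase, and was at 59.3 and 60.9 CPM against 1.6 and 0.98 in ES cells (log2 change of 5.54 ± 0.17, adjusted p = 1.08e-14). Hoxb4, of the hindbrain and neck, was at 22.4 ± 0.74 CPM, Hoxd8 at 14 ± 0.98 and Hoxc6 at 12.6 ± 0.75. Hoxa2, which sets the identity of the second pharyngeal arch, was at 2.27 ± 0.32 against 0.0968 ± 0.081 CPM. The posterior Hoxa13, of distal limb and hindgut, was at 2.54 ± 0.17 CPM. Summed over the 39 genes, Hox counts were 11.1 and 10.9 CPM in ES cells, 287 and 288 CPM in Msx1-positive cells, and 61.1 and 63.2 CPM in the Msx1-negative fraction. Against the Msx1-negative fraction, 35 of the 39 were higher and the other 4 were not called, where 30.5% of all genes were called higher.

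**Figure D4:**
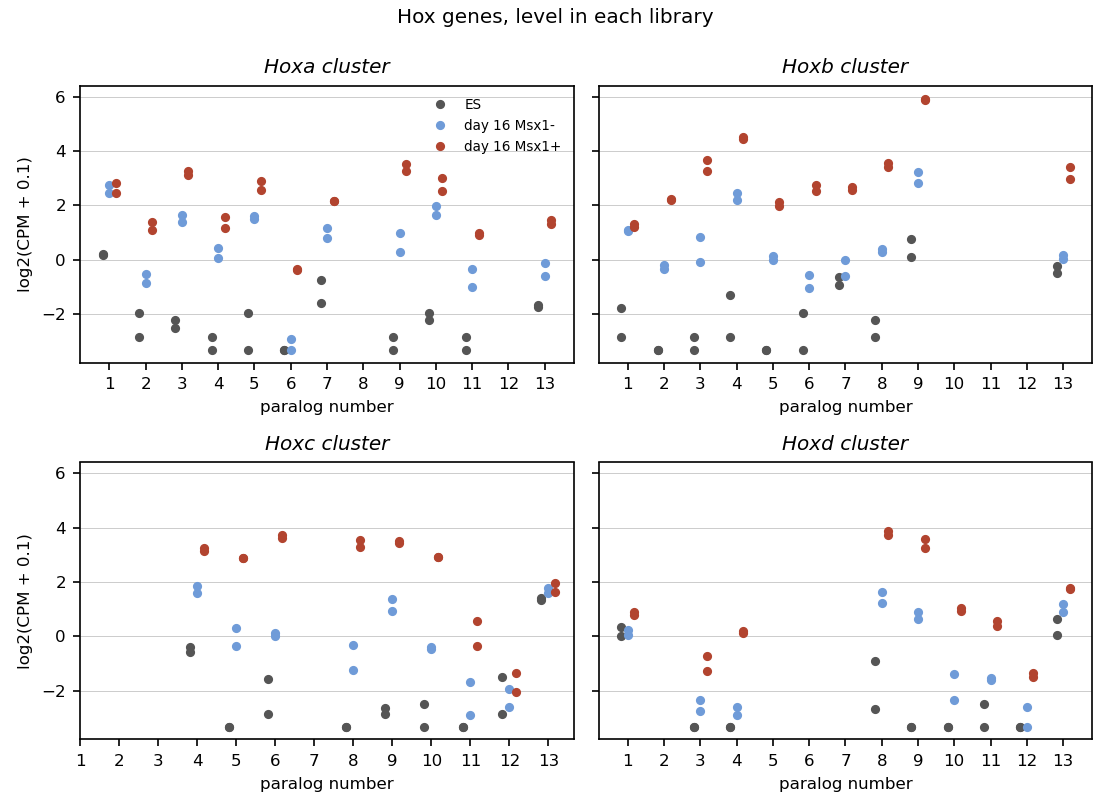
Level of each Hox gene by paralog number in the 4 clusters, as log2(CPM + 0.1), with 2 libraries each for ES cells, day 16 Msx1-negative and day 16 Msx1-positive cells. Msx1-positive points lie highest at most paralogs, with Hoxb9 at the top, and Hoxc12 and Hoxc13 show no separation.

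Signalling genes of the mesenchyme rose in most pathways. In the BMP and TGF-beta pathway, 35 of 38 genes were called higher and 2, Nodal and Smad7, lower. Among the ligands, Bmp2 was at 54.1 ± 2.2 against 0.32 ± 0.20 CPM, Tgfb2 at 146 ± 4.8 against 0.593 ± 0.021 and Tgfb3 at 49.4 ± 0.90 against 0.0778 ± 0.00090. Bmp3 and Bmp5 were at 18.6 ± 0.25 and at 9.17 ± 0.59 CPM with no ES count. Of the receptors, Tgfbr2 rose from 2.39 ± 0.19 to 124 ± 0.17 CPM and Bmpr1a from 61.5 ± 0.16 to 160.1 ± 1.8 CPM. Antagonists rose as well, Grem1 to 57.2 ± 2.1 and Fstl1 to 1154 ± 25.3 CPM. Of the target genes, Id3 was at 270.1 ± 25.3 against 18.3 ± 2.5 CPM, while Id1 was not called, at 94.3 ± 8.3 against 91.9 ± 5.5 CPM.

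In the WNT pathway, 39 of 46 were called higher and 5 lower. Wnt5a, the ligand of arch and limb outgrowth, was at 211 ± 1.6 against 0.761 ± 0.42 CPM. Wnt2 was at 14.2 ± 1.3 CPM with no ES count. Of the Frizzled receptors, Fzd1 rose from 2.4 ± 0.041 to 207 ± 6.8 CPM and Fzd2 from 6.31 ± 0.94 to 218 ± 7.1, whereas Fzd5 fell from 193 ± 8.6 to 36.4 ± 1.0 CPM. The inhibitors Dkk1 and Frzb were at 152 ± 5.8 and at 76.9 ± 0.85 CPM. Axin2, a target of canonical WNT signalling, rose from 12.4 ± 0.67 to 55.1 ± 6.4 CPM, and Notum, another target, fell from 19.7 ± 0.21 to 5.45 ± 0.74 CPM.

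Of 29 FGF and PDGF genes, 19 were higher and 8 lower. Receptors of mesenchyme rose, Pdgfra from 0.791 and 0.647 to 208 and 192 CPM, Pdgfrb from 2.05 ± 0.35 to 164 ± 9.8 and Fgfr1 from 106 ± 1.5 to 467 ± 3.7. The ligands Fgf4 and Fgf17 fell, and so did the feedback and target genes Spry4 (419 ± 21.4 to 114 ± 6.4 CPM), Spry2, Etv4 and Etv5. Spry1 and Dusp6, also targets of ERK signalling, rose, with log2 changes of 3.13 ± 0.07 and 0.97 ± 0.05. In the hedgehog and retinoic acid list, 23 of 28 were higher and 3 lower. Gli3, Boc and Gas1 rose to 191 ± 12.7, to 104 ± 3.5 and to 196 ± 11.1 CPM, while Gli1 fell. Cyp26b1, which degrades retinoic acid, was at 38.5 ± 1.3 against 0.427 ± 0.19 CPM, and Rarb, a retinoic acid target, at 21.4 ± 2.7 against 0.195 ± 0.11.

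Receptors and cues of arch and nerve guidance were called higher in 27 of 29 cases, and Ntn1 was lower. Ednra, the endothelin receptor that arch mesenchyme needs for jaw identity, was at 104 ± 0.64 against 0.185 ± 0.13 CPM (log2 change of 9.12 ± 0.17), and its ligand Edn1 at 11.4 ± 0.94 against 0.732 ± 0.49 CPM. Unc5c, a netrin receptor, was at 193 ± 11.8 against 0.175 ± 0.025 CPM and Nrp1, a semaphorin receptor, at 172 ± 15.3 against 0.215 ± 0.22 CPM. Of 27 IGF and imprinted growth genes, 21 were higher and 5 lower. Igf2 was at 502 ± 57.2 against 0.741 ± 0.37 CPM and its neighbour H19, a noncoding RNA, at 2215 ± 35.6 against 9.44 ± 2.4 CPM. Mest and Peg3 rose to 2331 ± 119 and to 4808 ± 461 CPM. The binding proteins Igfbp3, Igfbp4 and Igfbp5 were at 726 ± 50.1, at 987 ± 47.3 and at 681 ± 32.5 CPM. Grb10, Igf2r, Phlda2, Snrpn and Zdbf2 fell.

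Genes of DNA replication and mitosis were lower in 30 of 32 cases, and the other 2 were not called, with a median of -1.11. Mcm5, of the replicative helicase, fell from 564 ± 18.2 to 189 ± 1.1 CPM (log2 change of -1.58 ± 0.05) and Ccnb1, cyclin B1, from 509.8 ± 9.98 to 167 ± 1.8 CPM. Mki67, the proliferation antigen, fell little, from 341 ± 2.6 to 300.1 ± 20.8 CPM (adjusted p = 0.0378). That call was lost with DESeq2, with other scalings and without any of 3 libraries (Msx1-positive replicate 2 and either ES replicate), and Rrm1 was not called. Ccne1, the cyclin of entry into S phase, fell from 317 ± 3.7 to 72.8 ± 2.9 CPM. The D cyclins, which start the cell cycle, differed: Ccnd2 was at 731 and 695 against 2.66 and 2.47 CPM (log2 change of 8.12 ± 0.10, adjusted p = 5.56e-20), Ccnd1 rose from 86.9 ± 3.2 to 258 ± 4.1, and Ccnd3 fell from 316 ± 0.80 to 172 ± 2.7 CPM. Of the inhibitors of cyclin-dependent kinases, Cdkn1a rose from 89 ± 0.0073 to 341 ± 9.0 CPM and Cdkn2a from 11.8 ± 0.60 to 109.8 ± 1.8 CPM. In the list of cyclins, such inhibitors and damage response genes, 15 of 20 were higher and 5 lower.

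Metabolic genes were mostly lower. Of 26 genes of glycolysis and hypoxia, 17 were lower and 8 higher. Hk2, hexokinase 2, fell from 611 ± 5.2 to 95.3 ± 9.3 CPM, Pfkp from 597 ± 5.9 to 70.9 ± 5.6 and Pkm from 3958 ± 29.1 to 1478 ± 42.5. Pfkfb3, Adm and Vegfa were among the risers. Of 24 nuclear genes of oxidative phosphorylation, 20 were lower and the other 4 not called, with a small median of -0.60. The 13 mitochondrially encoded genes had 2 higher and 2 lower, and the lower count was 6 in a fit of the 4 libraries alone. Several of them, such as mt-Co2 at 24.7 ± 2.8 CPM beside mt-Co1 at 7585 ± 588, have near-identical nuclear copies, so their counts are uncertain.

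Genes of DNA methylation and chromatin went both ways, also within families. Of 13 DNA methylation genes, 5 were higher and 7 lower (median -0.35). Of 25 chromatin and lamina genes, 11 were higher and 12 lower (median -0.04). All genes tested were 37.3% higher and 33.7% lower. Tet1 fell from 853 ± 7.8 to 43.5 ± 3.3 CPM and Tet3 rose from 21.5 ± 0.14 to 125 ± 14.9 CPM. Dnmt3b fell (log2 change of -2.30 ± 0.06) and Dnmt3a rose slightly (log2 change of 0.36 ± 0.07). Hmga1 and Hmga2, architectural proteins of embryonic chromatin, moved in opposite directions, Hmga1 from 662 ± 36.4 to 208 ± 2.4 CPM and Hmga2 from 10.9 ± 2.3 to 597 ± 38.5 CPM. In the lamina, Lmna rose from 89.3 ± 3.2 to 267 ± 0.65 CPM, while Lmnb1 fell from 500.2 ± 7.0 to 276 ± 16.1 and Lbr, the lamin B receptor, from 290.1 ± 6.0 to 150.1 ± 0.36. Eed, Ezh2 and Suz12, of Polycomb complex 2, fell, with log2 changes of -2.17 ± 0.06, -0.75 ± 0.06 and -1.37 ± 0.06.

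Markers of other cell types were present too, and their part in the results above was not tested. Trophoblast genes had the highest summed level, 3289 to 3424 CPM in Msx1-positive cells, 1155 to 1169 in ES cells and 3537 to 3863 in Msx1-negative cells. Most of it came from Peg10, an imprinted gene of placenta and embryo, at 3183 ± 96.1 CPM in Msx1-positive and 1077 ± 2.3 CPM in ES cells, while Prl2c2 and Tpbpa, of differentiated trophoblast, were at 0.253 ± 0.083 and at 0.363 ± 0.19 CPM. The sums of the other lists of this paragraph ran from 18.2 CPM for macrophage genes to 293 CPM for primordial germ cell genes in Msx1-positive cells. Of 20 endoderm markers, 16 were higher than in ES cells and 1 lower, with a summed level of 32 to 35 CPM in ES cells, 211 to 218 CPM in Msx1-positive and 713 to 751 CPM in Msx1-negative cells. Gata6 and Gata4, which mesenchyme also expresses, were at 47.7 ± 1.1 and at 39.4 ± 0.25 CPM, Ttr at 9.6 ± 0.97 and Afp at 3.96 ± 0.31. Embryonic globins rose from no ES count: Hbb-bh1 was at 15.4 ± 0.093 CPM, Hba-x at 15 ± 2.0 and Hbb-y at 12.6 ± 0.22. Of 13 blood genes 7 were higher and 3 lower. Among 17 endothelial genes, 10 were higher and 6 lower. Cdh5, the cadherin of endothelium, was at 10.5 ± 0.23 CPM, and Pecam1, which ES cells express too, fell from 102 ± 2.2 to 9.63 ± 0.61 CPM. Of 6 macrophage genes tested, 2 were higher and 2 lower, and 5 of the 15 listed had no count in Msx1-positive cells. The 15 heart muscle genes had 7 higher and 6 lower, with Actc1 at 8.71 ± 0.86 CPM, and the 12 skeletal muscle genes 5 higher and 3 lower. Myod1 was at 0.14 ± 0.20 CPM and Myf5 at 0.0243 ± 0.034. Of 23 neuronal genes, 11 were higher and 7 lower, with Dcx at 5.93 ± 0.76 CPM. Glial and melanocyte genes were 4 higher and 9 lower of 15, epidermal genes 9 and 5 of 19, trophoblast genes 9 and 3 of 14, and primordial germ cell genes 1 and 10 of 12.

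The sorted cells went through a flow sorter, which the labels do not give for the ES cells. Of 18 immediate early and stress genes, 14 were higher and 2 lower. Fosb, a member of the AP-1 family, was at 400.2 and 379 against 0.714 and 0.745 CPM (log2 change of 9.06 ± 0.10), Fos at 289.6 ± 17.8 against 7.09 ± 2.3 and Jun at 303 ± 12.7 against 17.9 ± 0.70. The sorted Msx1-negative cells of the same day had 265 and 261 CPM of Fosb and 145 ± 9.4 CPM of Fos. Sorting and group cannot be told apart in the comparison with ES cells.

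The Msx1-negative cells of day 16 share the line, doxycycline, day and sorting with the Msx1-positive cells, and both were compared in the same fit. There, 61.3% of genes were called, 30.5% higher and 30.8% lower, and against ES cells the Msx1-negative cells had 53.0% called. The 33 pluripotency genes were all lower in Msx1-positive than in Msx1-negative cells (median -3.65). Nanog was at 445 and 426 CPM in Msx1-negative cells, a level above that of both ES libraries. Of 36 ectomesenchyme factors, 34 were higher and 1 lower. The exception was Dlx3, at 24.8 ± 1.0 CPM in Msx1-negative and 10.2 ± 2.3 CPM in Msx1-positive cells. Collagens were higher in 24 of 29 cases and lower in 4, and Col1a1 was at 276 and 320.2 CPM in Msx1-negative cells (log2 difference 4.63 ± 0.18, adjusted p = 2.88e-07). Dmp1 was at 0.229 and 0.327 CPM there (log2 difference 9.81 ± 0.13). Endoderm genes went against this order: 16 of 20 had been called higher than in ES cells, yet 12 were lower than in Msx1-negative cells and 3 higher.

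Against the Msx1-positive cells of day 8, 45.3% of genes were called, 20.6% higher and 24.7% lower. That balance depended on the scaling: 45.5% of the called genes were higher, against 50.8% with edgeR's RLE scaling and 34.1% with library size alone, which moved the median of all genes from -0.038 to -0.155 on the log2 scale. Pluripotency genes were lower at day 16 in 32 of 33 cases (median -2.57). Matrix genes were still rising between these days: 27 of 29 collagens and 30 of 30 mesenchymal adhesion genes were higher at day 16 than at day 8. Postn was at 77.5 and 69.1 CPM at day 8 (log2 difference 4.02 ± 0.19, adjusted p = 9.58e-06) and Acta2 at 7.43 and 7.63 CPM. Odontogenic genes moved less, with 12 of 21 higher, 4 lower and a median of 0.86. The 4 lower ones were Pitx1, at 135 ± 14.7 CPM at day 8, Dkk1, Fgf3 and Odam. Chondrocyte genes were 10 higher and 7 lower, but 6 higher and 8 lower with library size alone. These comparisons share the day 16 libraries, so their values are set side by side and not correlated.

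**Figure D5:**
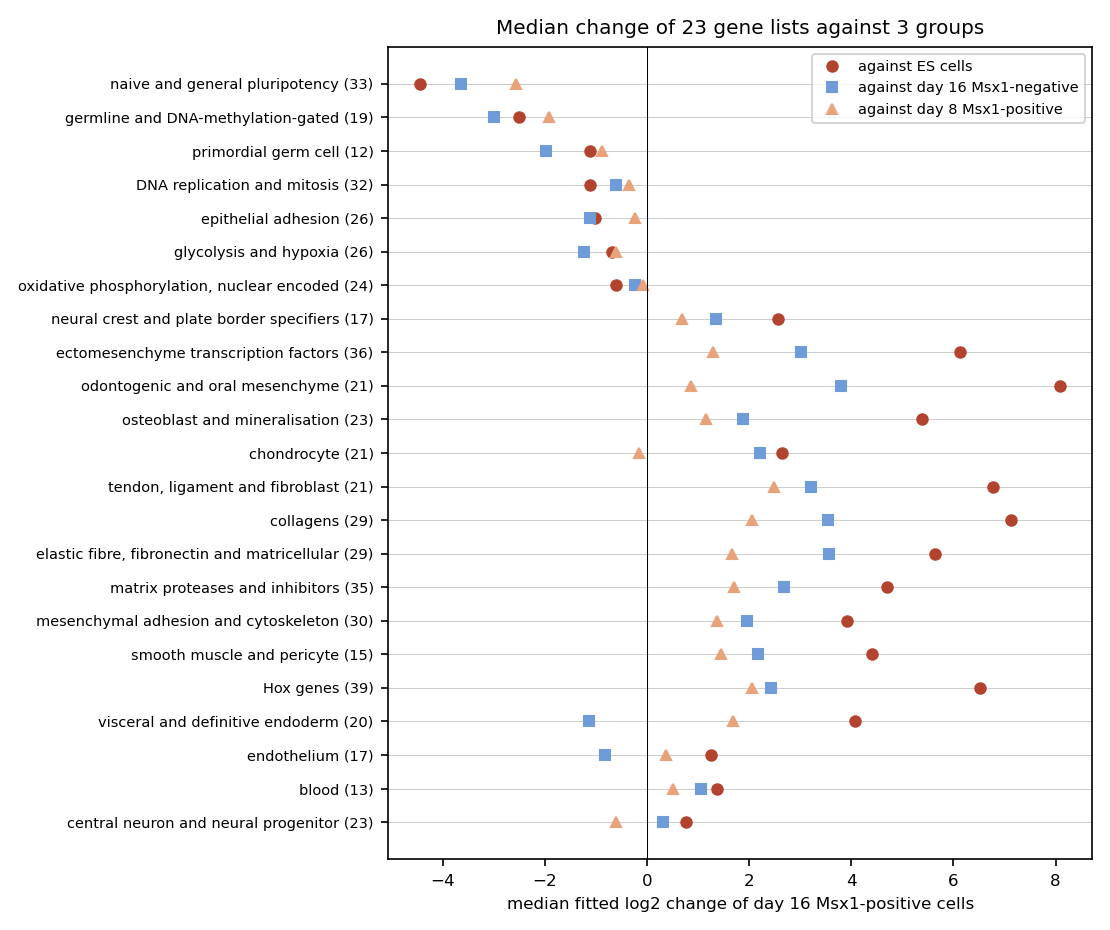
Median fitted log2 change of 23 gene lists in day 16 Msx1-positive cells against ES cells (circles), day 16 Msx1-negative (squares) and day 8 Msx1-positive cells (triangles). The pluripotency medians are below 0 against all 3 groups. The endoderm and endothelium medians are above 0 against ES cells and below 0 against Msx1-negative cells.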

How the data were processed

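RNA-seq was read from the gene-by-library table of raw read counts that the authors deposited, with 54114 gene symbols and 10 libraries of days 8 and 16 and ES cells. Per the labels' protocols, libraries were made with a kit that does not keep strand. The build GRCm38 and the tools HISAT2 2.1.0, fastp 0.20.0 and DESeq2 1.18.1 appear in the submitters' processing notes. Neither a counting tool nor an annotation is given in the sources used here. The columns were matched to samples by name, and groups taken from the labels.

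Genes passing edgeR's filter on low counts (22504) were fitted with all 10 libraries by edgeR 4.0.16 (R 4.3.3, TMM scaling, robust quasi-likelihood test, no block), and p-values were Benjamini-Hochberg adjusted over all of them. With 2 libraries against 2, an exact permutation test of a single gene cannot go below p = 0.333. CPM used TMM-scaled library sizes, and exon lengths and positions came from GENCODE vM21. The script was tested on simulated counts. The genes named were the 15 largest called rises and falls by fitted log2 change, the 10 highest per kilobase, and members of the lists. Those rises and falls had at least 5 CPM in both libraries of the higher group. Members and lists were chosen with earlier results of these data known. Alternatives were other scalings, filters, DESeq2 1.42.0, the 4 libraries alone, a replicate block, and each compared library left out. Symbols with no tie to 1 annotated gene kept their name and have no position.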

Additional observations from a re-analysis of the deposited data

Results flagged for a closer look

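Some genes went opposite ways from ES cells in the sorted fractions of day 16: both changes and their difference were called by edgeR's quasi-likelihood test. This held for 73 genes of the lists. They are given as the change in Msx1-positive minus that in Msx1-negative cells on the log2 scale, a value in which the shared ES libraries cancel. No explanation was tested.

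The 6 that moved furthest in both directions were Fbxo15, Pcolce, Asz1, Nlrp4c, Tgfb1 and Zic5. Fbxo15, an F-box gene of ES cells, was at 37.5 ± 1.8 CPM in ES cells, 4.39 ± 1.2 CPM in Msx1-positive and 127 ± 1.3 CPM in Msx1-negative cells (difference -4.85). Pcolce, an enhancer of procollagen cleavage, was at 148 ± 0.33, 494 ± 3.4 and 32.2 ± 0.82 CPM in the same order (difference 3.94). Tgfb1, the TGF-beta 1 ligand, was at 23.2 ± 2.0, 80.5 ± 0.53 and 8.46 ± 0.51 CPM (difference 3.25). The germline genes Asz1 and Nlrp4c were low everywhere, at most 5.68 ± 0.046 CPM for Nlrp4c in Msx1-negative cells, with differences of -4.70 and -4.01. Zic5, a zinc finger factor of the dorsal neural tube, had a difference of -2.83.

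Of other list genes named in the report, those lower than ES cells in Msx1-positive and higher in Msx1-negative cells were Nanog (-4.72), Klf2 (-2.01), Lefty1 (-2.54), Alpl (-3.37), Pecam1 (-3.81), Tfap2c (-1.79), Mmp17 (-1.60) and Lama1 (-5.13). Lama1, the laminin chain of early basement membranes, was at 3767 ± 418 CPM in Msx1-negative cells against 108 ± 15.3 CPM in Msx1-positive cells. Its call against ES cells was lost without Msx1-positive replicate 2, without either ES replicate, and with no filter on low counts. The opposite order was found for Bmp4 (2.64), Ccnd1 (2.47), Lmna (1.92), Dusp6 (1.75), Dlx2 (1.18) and Fn1 (0.99).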

How the results depend on the processing

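Every count of called genes kept within 1.5 times its value under all alternatives run. Genes called higher numbered 8395, between 7064 with a filter of at least 1 CPM in 2 libraries and 8775 with library size alone as the scaling, and genes called lower numbered 7581, between 6668 and 7631. With DESeq2 they were 8290 and 7409, and with the 4 compared libraries alone 8020 and 7417. Leaving out 1 library at a time gave 7752 to 7940 higher and 7031 to 7124 lower. There, the lone library of a group was assumed to vary like the others. Library size alone moved the median change of all genes from 0.07 to 0.14.

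The replicate numbers were not treated as pairs, since the labels do not say that they pair samples. Deviations of same-numbered ES and day 16 Msx1-positive libraries correlated at 0.061. Over all pairs of groups in the fit, the correlations ran from -0.139 (Msx1-positive, day 8 with day 16) to 0.336 (day 8 Msx1-positive with day 16 Msx1-negative). With the replicate block, 8297 genes were called higher and 7523 lower.

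Of list counts under alternatives, 1020 of 1034 stayed within 1.5 times their value and 14 did not, all in 6 lists with small counts: cartilage, skeletal muscle, glia and melanocyte, mitochondrially encoded, immediate early and oxidative phosphorylation genes. Of 311 named genes, 298 kept direction and call under every alternative, and none reversed. Genes near the threshold that lost or gained a call in some setting were Cldn6, Col10a1, Gapdh, Hoxc13, Lama1, Marveld2, Matn3, Mki67, Phospho1, Prl2c2, Snorc, Sox10 and mt-Co2. The cause was not tested. Genes with no count or 1 to 3 counts in ES cells have fold changes limited by counting, and only a bound or interval is given for them.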

Other observations

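Genes of antigen presentation and the interferon response were called higher in Msx1-positive than in ES cells in 17 of 19 cases and lower in 1 (Bst2). B2m, the light chain of MHC class I, rose from 8.76 ± 1.4 to 158 ± 20.4 CPM and Tap1, the peptide transporter, from 5.12 ± 0.83 to 35.7 ± 1.9 CPM. The interferon-stimulated genes Isg15 and Ifit1 rose from 0.0389 ± 0.00045 to 9.67 ± 0.11 CPM and from 0.126 ± 0.012 to 11.8 ± 1.1 CPM. In the Msx1-negative cells of the same day, Isg15 was at 1.42 ± 0.035 CPM and Ifit1 at 0.507 ± 0.25 CPM.

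Germline genes, many of which DNA methylation keeps silent in somatic cells, were lower in 17 of 19 cases. Ooep, an oocyte gene, fell from 99.6 ± 2.8 to 1.76 ± 0.13 CPM and Piwil2, a piRNA-binding protein, from 61 ± 1.2 to 4.1 ± 0.46 CPM. Tdrd1 and Taf7l rose, with log2 changes of 0.73 ± 0.18 and 0.90 ± 0.15. Ddx4 changed little, from 25.7 ± 1.4 to 19.6 ± 0.13 CPM. Of 17 long noncoding RNAs, 8 were higher and 9 lower. All 7 Platr transcripts tested, named for their link to pluripotency, fell, and Dlx6os1, named as an antisense transcript of Dlx6, rose from no ES count to 30.7 ± 0.54 CPM. Strand was not kept, so its count and that of Dlx6 may hold each other's reads.

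Genes of the primitive streak and early mesoderm were higher in 14 of 20 cases and lower in 4. Lhx1, a LIM factor of mesoderm and kidney, rose from 0.0778 ± 0.00090 to 12.9 ± 0.86 CPM and Meox1, of somites, from 0.936 ± 0.40 to 17.2 ± 0.43 CPM. Tcf15, a bHLH factor of somites that ES cells also express, fell from 117 ± 3.3 to 4.41 ± 0.14 CPM. T (brachyury) was at 1.9 ± 0.28 CPM.

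By chromosome, over genes with a mean of at least 1 CPM in either group, the median log2 change was lowest on chromosome 4, at -0.34 over 1014 genes, of which 51.4% were called lower and 33.1% higher. On the other chromosomes compared, by the same rule, 33.8% (X) to 46% (chromosome 15) were called lower and 36.2% (chromosome 17) to 51.5% (X) higher. The median was highest on chromosome 3 (0.34 over 761 genes) and the X chromosome (0.32 over 565 genes). In Msx1-negative cells against ES cells the medians were -0.24 for chromosome 4, 0.13 for chromosome 3 and 0.14 for X. Both comparisons share the ES libraries, and no test was made of the chromosomes.

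Some of the 15 largest rises and falls have a neighbour within 200000 bases among the genes of the lists or named here. Other genes were not searched, and the lists hold some of these families by choice. So the closeness is not a result about all genes. Dmp1, Dspp, Ibsp and Sparcl1 on chromosome 5 lie with gaps to Dmp1 of 22485, 85068 and 88879 bases, and Dcn and Lum on chromosome 10 are 46984 bases apart. By GENCODE positions Fgf4, which fell, has Fgf3, Fgf15 and Ccnd1 within 2930, 31287 and 64687 bases. These 3 rose, with log2 changes of 0.86, 1.35 and 1.57. The RefSeq start of Fgf4 lies 14019 bases from its GENCODE start, so its distance to Fgf3 depends on the annotation.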
